A study of Mus musculus with 12 samples.

Results

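The hypothalamus of water-only mice was described from 3 of the 12 arrays of the series, those whose labels name the water group, and no alcohol array entered any value. The animals were male ICR mice, an outbred stock, which were 3 weeks old at the start, got used to the drinking tubes on days 1 to 5, and had deionized water in both tubes until decapitation. The sample labels put that on day 51 and the design text lets drinking run to day 57, so the mice were no longer juvenile at collection. RNA of 9 mice was combined in equal amounts into 3 pools of 3 mice each, labeled with Cy3 and hybridized to 60-base probes of the Agilent whole mouse genome array. All 3 arrays lay on 1 slide, so the spread between pools holds no difference between slides, and pooling averages the differences between mice. Nothing here says how a single mouse of the outbred stock would read. In RNA of whole tissue, fewer cells of a type and less RNA per cell cannot be told apart.

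The hypothalamus couples the brain to the pituitary and governs water balance, feeding, sleep, temperature and reproduction. Much of this runs through peptides that small groups of neurons cut from larger precursors, pack into granules and release. Vasopressin (Avp) and oxytocin (Oxt) come from the paraventricular and supraoptic nuclei, pro-opiomelanocortin (Pomc) from the arcuate nucleus, and hypocretin (Hcrt, also called orexin) and melanin-concentrating hormone (Pmch) from the lateral area.

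Each of these 5 markers had 1 probe on the array, and the first 30 bases of each probe are given here. The level of a marker is the light of the RNA bound to its probe. They are written 5′ to 3′ with G and C in capitals, at the positions that the array files give on mouse build mm9. The Avp probe lies at chr2:130406552-130406817 on the minus strand, that of Oxt at chr2:130402501-130402644 on the plus strand, that of Pomc at chr12:3960413-3960472 on the plus strand, that of Hcrt at chr11:100623067-100623126 on the minus strand and that of Pmch at chr10:87555031-87555090 on the plus strand.
Avp: CGCCGtGGGCatCtGCtGCaGCGaCGaGaG
Oxt: GCCGCCaCaGGCatCtGCtGCaGCCCGGat
Pomc: tGGtGaCGCtCttCaaGaaCGCCatCatCa
Hcrt: GGGaGGGtCCGGaGtCtGaaCCCatCttCt
Pmch: tGtCtGttttaaaaGGaCCtGGttaaGata
Over its 60 bases the G and C content was 73.3% for Avp and for Oxt, 55% for Pomc and for Hcrt, and 35% for Pmch. Avp and Oxt are neighbors on chromosome 2, and both spans are longer than a probe. The stretches shown for these 2 genes share the run GGCatCtGCtGCaGC. Whether either probe also bound RNA of the other gene was not tested.

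All 5 markers were well above background on all 3 arrays, so the marker check did not go against the tissue label. Levels are log2 signals minus the 75th percentile of the array, so 0 is a probe brighter than 75% of the spots and 1 is a 2-fold step. Hcrt, the wakefulness peptide, had a level of 5.44 in pool 1, 5.96 in pool 2 and 5.65 in pool 3, or 5.68 ± 0.26 (SD, n = 3). Pmch, which promotes feeding, read 5.48, 5.17 and 5.01 in pools 1 to 3, or 5.22 ± 0.24. The pool that was lowest for Hcrt was thus the highest for Pmch, although both precursors come from cells of the lateral area.

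Oxt read 5.17, 5.34 and 4.80 in pools 1 to 3, a mean of 5.10 ± 0.28. Avp read 4.98, 4.85 and 4.76, a mean of 4.86 ± 0.11, and Pomc, the precursor of the appetite-lowering melanocortins, 3.71, 3.73 and 3.60, a mean of 3.68 ± 0.07. Pool 3 was the lowest for all 3 of these precursors, but with no scaling between arrays pool 2 was below it for Avp and Pomc. Over all detected genes pool 3 was the lowest for 41.5%, or 13.3% with no scaling. In the order of all 41144 probes by mean signal, Hcrt stood at rank 188, Pmch at 315, Oxt at 355, Avp at 452 and Pomc at 1283.

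Such a rank orders light and not transcript number. Of the 6061 genes that RefSeq accessions tied to several probes, the brightest and dimmest probe of a gene lay 2.44 log2 units apart at the median, with an interquartile range of 1.12 to 4.2. That distance is wider than the gap between Hcrt and Pomc, so the order among the 5 markers carries no comparison of their RNA.

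The spread of the markers between pools can be compared within a probe. Over the probes detected on all 3 arrays the SD among pools was 0.0955 at the median, and it was smaller for bright probes. Oxt varied 4.22 times as much as the typical probe of its brightness, and 3 of the 500 probes nearest to it in mean signal had a larger SD. Hcrt varied 3.70 times as much, with 6 of 500 nearest probes above it, and Pmch 3.54 times, with 9 of 500. Avp, at 1.70 times with 82 of 500 above it, and Pomc, at 1.18 times with 175 of 500, were nearer to their neighbors. From the lowest to the highest pool the step was 1.46-fold for Oxt, 1.43-fold for Hcrt and 1.39-fold for Pmch, and all 3 stayed far below the 2-fold range used here to mark a wide spread.

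**Figure D1:**
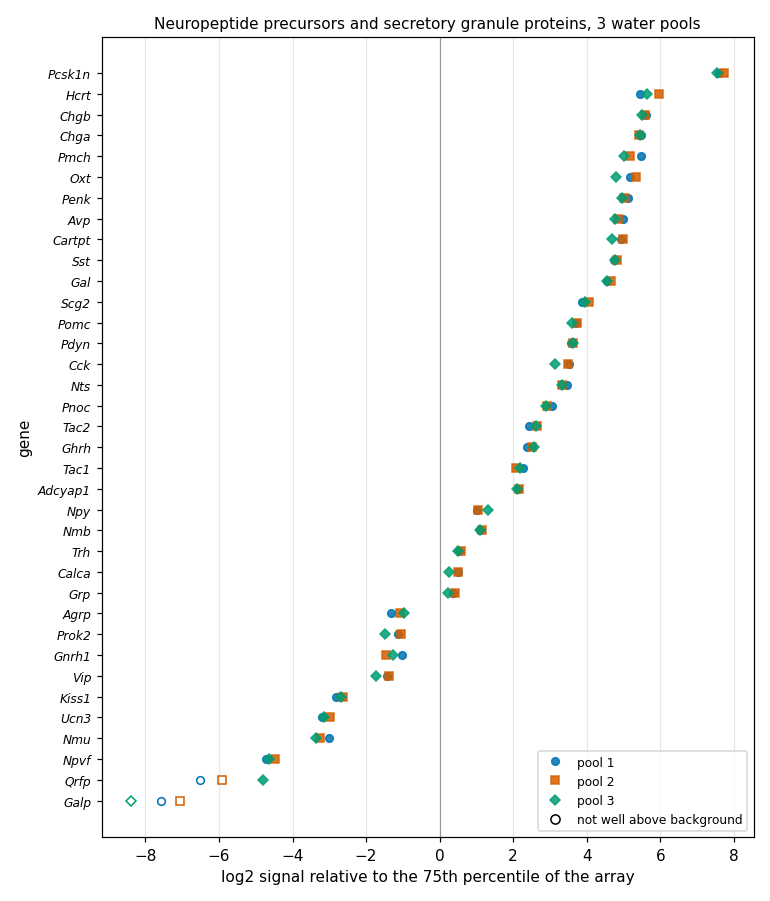
Level of each peptide precursor and secretory granule protein (rows, sorted by mean) in pools 1, 2 and 3, on the log2 scale relative to the 75th percentile of the array, with open symbols where the probe was not well above background. The pools overlap closely for most genes, Pcsk1n is the brightest at 7.62, and Galp and Qrfp lie at the dim end with open symbols.

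The other peptides filled the same range. Of 39 listed precursors and granule proteins, 36 had a probe found on the array, 34 were well above background on all 3 arrays, 1 on 1 array and 1 on none. No detected member had a range of at least 1, and the median SD of 0.0938 stood beside 0.0849 over all detected genes. Against probes of like brightness the median ratio of SDs over the detected members was 1.70 for the paraventricular and supraoptic list, 1.32 for the arcuate, 3.54 for the lateral area, 2.22 for the preoptic and suprachiasmatic and 1.27 for the peptides of several nuclei. Single members lay below 1, such as Adcyap1 at 0.345 and Chga at 0.306. Among the 19835 genes named through RefSeq, 76.1% had their brightest probe above background on all 3 arrays and 1.1% of those detected had a range of at least 1, so 34 of 36 is the higher share. Crh, Nms and Vgf were not analysed here, since no probe was matched to them.

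Other precursors with bright probes were proenkephalin (Penk, 5.03 ± 0.09), the appetite-lowering peptide of Cartpt (4.86 ± 0.15), somatostatin (Sst, 4.78 ± 0.04) and galanin (Gal, 4.59 ± 0.07). In the arcuate nucleus, Npy, which drives feeding, read 1.01 in pool 1, 1.05 in pool 2 and 1.33 in pool 3. Agrp, which is made in the same neurons as Npy and blocks melanocortin receptors, read -1.33, -1.09 and -0.96. Both were thus highest in pool 3, as were 25.6% of all detected genes, or 45.2% with no scaling between arrays. The span was 0.32 for Npy and 0.37 for Agrp. Growth hormone releasing hormone (Ghrh) read 2.48 ± 0.09, and Kiss1, which acts on the neurons of gonadotropin releasing hormone, -2.71 ± 0.09.

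Of the preoptic and suprachiasmatic list, gastrin releasing peptide (Grp) read 0.34 ± 0.09 and the other 3 measured members had levels below 0. Gonadotropin releasing hormone (Gnrh1) read -1.03, -1.47 and -1.27 in pools 1 to 3, vasoactive intestinal peptide (Vip) of the suprachiasmatic nucleus -1.42, -1.39 and -1.74, and Prok2, an output signal of that clock, -1.13, -1.06 and -1.50. Vip and Prok2 were both lowest in pool 3, as were 41.5% of all detected genes, or 13.3% with no scaling between arrays. The galanin-like peptide Galp, made by few arcuate cells, was above background on no array, and Qrfp was above it in pool 3 alone, at -4.79.

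The enzymes and proteins that make and store peptides were detected throughout. Pcsk1n, an inhibitor of prohormone convertase, had the highest level of the peptide lists at 7.62 ± 0.09. Carboxypeptidase E (Cpe), which trims the cut peptides, read 6.52 ± 0.03, the granule proteins Chgb and Chga 5.56 ± 0.06 and 5.45 ± 0.02, and prohormone convertase 2 (Pcsk2) 4.39 ± 0.17. All 5 members of the peptide processing list were above background on all 3 arrays, with levels from 0.65 for Pcsk1 to 6.52 for Cpe.

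The share of all named genes detected on all 3 arrays, 76.1%, stands beside each count that follows. Of 24 receptors for peptides and appetite signals 23 were detected on all 3 arrays, with a median level of -1.73, and the GLP-1 receptor (Glp1r) on 2. Among those detected on all 3 arrays the widest SD was that of the hypocretin receptor Hcrtr1, at -0.80 in pool 1, -0.56 in pool 2 and -1.14 in pool 3, while the leptin receptor (Lepr) read -4.90 ± 0.12. Of 8 steroid and thyroid hormone receptors 7 were detected on all 3 arrays, and estrogen receptor beta (Esr2) on 2. Thyroid hormone receptor alpha (Thra) at 3.55 ± 0.02 and the glucocorticoid receptor (Nr3c1) at 2.85 ± 0.04 were the brightest of them, and their SDs were among the smallest.

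Of 25 transcription factors that pattern the hypothalamus, 22 were above background on all 3 arrays. Otp and Irx3, with Bsx, an arcuate factor, were above it on none, each with 1 probe, so their signal here is only bounded by the background. The brightest was Ebf3 at 1.87 ± 0.09. The widest SDs were those of Lhx8, at 0.56 in pool 1, -0.17 in pool 2 and 0.46 in pool 3, of Sim1, a factor of the paraventricular nucleus, at -3.94, -4.59 and -4.61, and of Lhx6, at 0.77, 0.07 and 0.67. Nkx2-1, which sets up the ventral hypothalamus, read 0.70, 0.09 and 0.21. Pool 2 was the lowest for Lhx6, Lhx8 and Nkx2-1, and a second Lhx8 probe was lowest there too, at -2.86 against -2.03 in pool 1 and -1.36 in pool 3. Of the 22 detected factors 9 were lowest in pool 2, 7 in pool 3 and 6 in pool 1. Over all detected genes pool 2 was the lowest for 26.0%, or 70.6% with no scaling between arrays. Within the 500 probes nearest in mean signal, 6 had a larger SD than Lhx6, 4 than Lhx8 and 10 than Nkx2-1. These genes were named for their wide SDs, so such ranks restate that choice.

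Transmitter and glial genes were detected together. The vesicular GABA transporter (Slc32a1) read 5.85 ± 0.12 and the GABA-making enzyme Gad1 4.43 ± 0.11, and the glutamate transporter Slc17a6, the form of the diencephalon, read 3.95 ± 0.05. All 9 members of each of the lists for neurons in general, astrocytes, oligodendrocytes and microglia were detected on all 3 arrays. The brightest members of the neuron, astrocyte and microglia lists were Snap25, a synaptic fusion protein, at 5.60 ± 0.07, the aldolase Aldoc at 6.45 ± 0.08 and Csf1r, a growth factor receptor, at 2.27 ± 0.10. Of the oligodendrocyte list, myelin basic protein (Mbp) had the widest SD, at 6.03, 6.11 and 5.83 in pools 1 to 3. The enzyme that makes histamine (Hdc), found in the tuberomammillary nucleus, read 1.87 ± 0.09. Also all 11 markers of tanycytes and ependyma, the cells that line the third ventricle, were detected. The widest of them was the cilia factor Foxj1, at 0.03, -0.30 and -0.53 in pools 1 to 3.

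Markers of neighboring regions bear on how far the dissection reached. The forebrain glutamate transporter Slc17a7 and the cerebellar genes Gabra6 and Cbln3 were not well above background on any array, and neither were the serotonin genes Tph2 and Slc6a4 and the noradrenaline transporter Slc6a2. Dbh, which makes noradrenaline, was above background in pools 1 and 3, at -4.88 and -5.78. Other markers of the same regions were detected on all 3 arrays, namely 6 of 8 for cortex and hippocampus, 4 of 6 for cerebellum, and Fev, a factor of serotonin neurons, at -4.27 ± 0.05. All 8 thalamus and all 7 striatum markers were above background on all 3 arrays, with medians of -0.49 and -0.84. The highest of the thalamus list was Tcf7l2 at 2.06 ± 0.15, and the widest were Prkcd (0.10, 0.04 and -0.38 in pools 1 to 3) and Gbx2 (-2.11, -2.58 and -2.54). How much tissue of those regions the pools held was not tested. Globin RNA was bright, with Hbb-b1 at 6.40, 6.52 and 6.20 and Hba-a1 at 5.68, 5.78 and 5.54.

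The labels give males, and all 4 Y-linked genes of the list were above background on all 3 arrays, with Ddx3y at 1.43 ± 0.03. Of 4 probes for Xist, the RNA that silences an X chromosome in females, 3 were above background on no array and 1 in pool 3 alone, at -5.63 there.

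The 20 named genes of highest mean signal mixed general cell functions with genes of neurons and glia. Ptprz1, a receptor phosphatase of glia and their precursors, was the brightest of all 41144 probes at 8.53, 8.48 and 8.12 in pools 1 to 3. The mitochondrial gene COX2 followed at 7.67 ± 0.06, then the peptide gene Pcsk1n, ferritin heavy chain (Fth1, 7.57), apolipoprotein E (Apoe, 7.45), ubiquitin (Ubb, 7.45), mitochondrial CYTB at 7.44 ± 0.11 and progranulin (Grn, 7.43), and after them the glycolytic enzyme Aldoa (7.39), Sparcl1 (7.26), Cox6a1 of the respiratory chain (7.22), the ribosomal fusion protein gene Fau (7.21), the axonal motor Kif5a (7.02) and the protease inhibitor Cst3. Rtn1, Tmem130, Rplp2 and 6330403K07Rik also belonged to the 20 named genes of highest mean signal, at 6.80 to 6.96.

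Among the 50 brightest probes, 8 were for cytosolic ribosomal proteins, 4 for the mitochondrial genome, 2 for nuclear genes of the respiratory chain and 6 had no RefSeq name, 2 of which also count among the 4 on the mitochondrial genome, with the probe that the files call Rn18s at 7.80 ± 0.09 the highest of these 6. No probe was saturated on any of the 3 arrays.

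Detection as a whole followed gene families. Of the 41144 probes with a value on all 3 arrays, 68.3% were well above background on all 3, 24.3% on none, and the rest on 1 or 2. By gene, 18.3% of the 19835 had no probe above background on any array. Tubulins (20 of 20 probes) and subunits of ATP synthase (25 of 25) were detected throughout, as were 54 of 56 probes for complex I subunits and 134 of 141 for cytosolic ribosomal proteins. Rpl39l, a copy of a ribosomal gene best known from testis, and Cox8c were the genes with no probe above background in the ribosomal and cytochrome c oxidase families.

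Receptors of the sensory organs lay at the other end. Of 957 olfactory receptor probes 12.1% were above background on all 3 arrays and 78.3% on none, and of 145 vomeronasal receptor probes 8.28% and 84.1%. None of 13 bitter taste receptor probes was above it on all 3. Hox genes, which pattern the body behind the forebrain, were above background on all 3 with 6 of 52 probes and on none with 38. Members against the rest of their family were Olfr571 at 1.64 ± 0.11, Olfr279 at 0.48 ± 0.12, Hoxa3 at -1.41 ± 0.17, Hoxb6 at -1.42 ± 0.22 and Krtap4-6, of the hair keratin partners, at 4.19 ± 0.04. Ion channels were mixed. Of the GABA-A receptor subunits 28 of 33 probes were detected on all 3 arrays, and Gabra6, Gabrr2 and Gabrp had no probe above background.

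**Figure D2:**
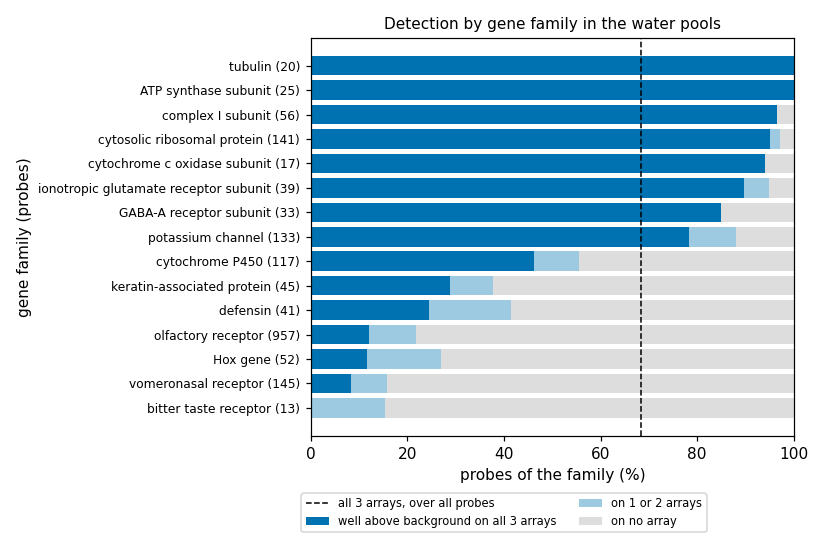
Share of the probes of each gene family (percent, with the number of probes in parentheses) that were well above background on all 3 water arrays, on 1 or 2, or on none, with a dashed line at 68.3% for all probes. Core metabolic and cytoskeletal families reach 94.1% or more, and sensory receptor and Hox families lie at 12.1% or less.

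Genes of other organs give the limit of that reading. Of 46 measured markers of liver, skeletal muscle, pancreas, testis, skin, eye and lymphocytes, 26 were above background on all 3 arrays, 5 on 1 or 2 and 15 on none, with a median level of -5.05 against -1.15 over all named genes. Albumin (Alb), the liver cytochrome Cyp2e1, the muscle creatine kinase Ckm and the sperm protein Akap4 were on none. The small heat shock protein Cryab, a lens crystallin that glia also make, read 3.40 ± 0.07, the skin gene Lor 3.10 ± 0.10, the keratin gene Krt1 1.42 ± 0.02, muscle actin (Acta1) -0.99 ± 0.14 and insulin (Ins2) -0.62 ± 0.03. Being well above background is therefore a statement about a probe, and whether these signals came from the named transcript was not tested.

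The makeup of the probe itself moved with detection. Of the 1994 probes with a G and C content up to 30%, 32.1% were above background on all 3 arrays. The share was 63.9% between 30 and 40%, 73.2% between 40 and 50%, 83.2% between 50 and 60% and 86.1% for the 180 probes beyond 60%. The probes of Avp and Oxt belong to that last set and that of Pmch to the second. Whether base content set the detection of any single gene was not tested. Among genes with several probes, 518 of 6061 (8.55%) had 1 probe above background on all 3 arrays and another on none, so a single dark probe does not show that Otp, Irx3, Bsx or Galp was silent.

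The pools resembled each other closely. Over the probes detected on all 3 arrays, the correlation was 0.9956 between pools 1 and 2, 0.9950 between 1 and 3 and 0.9963 between 2 and 3, and the median absolute difference lay between 0.0968 and 0.126 log2 units. No pair had an identical signal at any probe. A set of 245 probes is spotted 10 times on each array, and for the 191 of them that were detected the SD between spots of 1 array was 0.0543 to 0.0699 at the median. The SD between pools of the same probes was 0.0934 at the median, and the scatter of the spots alone would give 0.0198 for a mean of 10 spots. For 163 of the 191 the pools differed by over 2 times that scatter, with Fos (0.46), Foxa2 (0.43) and Nkx2-1 (0.32) showing the widest SDs. The values of Fos, an early marker of neuronal activity, were -1.35, -2.06 and -1.20, with pool 2 apart. The spread between pools was thus wider than that of the spots, and it includes the labeling and hybridization of each pool.

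A range of at least 1, which is 2-fold between the highest and lowest pool, was found for 413 of 28101 probes, or 1.47%. Of these 363 lay below the median signal and 50 above it. Pool 1 was the one farther from the other pools for 166 of them, pool 3 for 135 and pool 2 for 112, so no single pool accounts for the set.

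**Figure D3:**
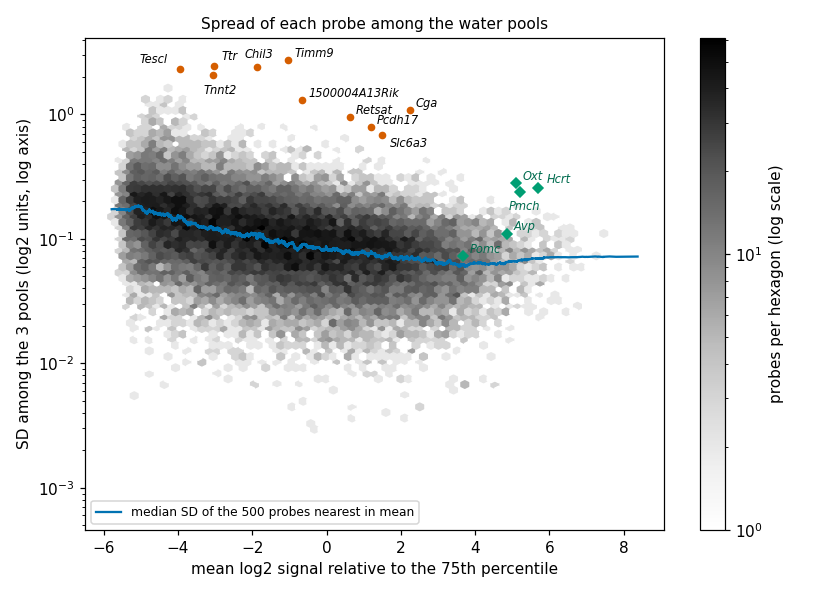
SD among the 3 pools (log axis, log2 units) against the mean level of each probe detected on all 3 arrays, with gray hexagons for the number of probes, the blue line for the median SD of the 500 probes nearest in mean, orange points for genes of wide spread and green diamonds for the 5 markers. Timm9 has the highest SD at 2.73, Cga stands apart among brighter probes at 1.09, and Oxt, Hcrt and Pmch lie above the line.

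Among probes above background on all 3 arrays, the widest spread was that of Timm9, a chaperone that escorts proteins to the inner mitochondrial membrane. One of its 3 probes read 0.21 in pool 1, -4.17 in pool 2 and 0.86 in pool 3, a step of 32.6-fold or 5.03 on the log2 scale, which was 4.25 after normexp background correction, while the brightest read 1.60, 1.53 and 1.39 and the dimmest -4.39, -4.03 and -3.64. The gene's 3 probes thus did not move together. Pcdh17, a cell adhesion protein of neurons, gave the other case. Both bright probes had the same pattern, 3.93, 2.37 and 3.31 for its brightest probe and 1.87, 0.33 and 1.39 for the next, and the third probe read -1.77, -1.44 and -1.45 without the drop in pool 2.

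The first 30 bases of the probes of both genes are shown, with G and C in capitals, because each set reads 1 gene at different places and disagrees. Those of Timm9 lie on the minus strand at chr12:72226471-72226530, chr12:72231471-72231530 and chr12:72236700-72236759, and the last is the probe with the wide spread. Those of Pcdh17 lie on the plus strand at chr14:84877710-84877769, chr14:84933861-84933920 and chr14:84936704-84936763, and the first is the one without the drop.
Timm9 probe 1: GGGaaCCtaCaataaaCttaCaGaaaCCtG
Timm9 probe 2: tCtCtCataGGttCCtCCtataGCaataat
Timm9 probe 3: CttCCttGaGGCtaGaCtttGaatCGGGaa
Pcdh17 probe 1: aaGaGGttCtGattttaatGaaaGtGtCCt
Pcdh17 probe 2: tCCaaGCtaCaCCaaaCattaaCCCatatt
Pcdh17 probe 3: CtaGaCaaaCttataCttatGGCaaaCaaC
Probes 2 and 3 of Timm9 have the same G and C content, 36.7%, and all 3 of Pcdh17 have 35.0%.

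Of the named genes detected on all 3 arrays, the 20 with the widest spread were mostly dim, 18 of them below the median signal. Behind Timm9 came transthyretin (Ttr), with -1.06, -2.22 and -5.80 in pools 1 to 3, the chitinase-like protein Chil3, made by macrophages, with -0.53, -4.66 and -0.42, Tescl with -5.16, -1.27 and -5.44, and cardiac troponin T (Tnnt2) with -1.48, -5.39 and -2.30. For Chil3 and Tnnt2 pool 2 was the low one, and Tescl was high there alone. After normexp correction the difference between the highest and lowest pool was 3.15 in place of 4.74 for Ttr and 3.24 in place of 4.25 for Chil3. Tnnt2 has a second probe that was above background on no array. Among the rest were Spdef, Pan3, Mkrn3, Exo1, 5830417I10Rik, Fbxw13, Thsd7b, Mdh1, Stk32a, 2610507B11Rik, Olfr521, 1500004A13Rik, Hnrnpll and Rbp2, with SDs from 1.28 to 1.71.

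Other probes of the same genes followed in some cases. Of the 20 genes 10 had a further detected probe, and for 4 of them, 1500004A13Rik, 5830417I10Rik, Hnrnpll and Stk32a, at least 1 such probe too had a range of at least 1. For 5830417I10Rik the further probes lie on the other strand than the widest one. In Hnrnpll that was a dim probe, while its brighter probes read 0.96, 0.97 and 1.08 and 1.74, 1.61 and 1.59. Mdh1, a malate dehydrogenase, shows the contrast, with -2.88, -5.36 and -5.20 on its dim probe and 5.36, 5.17 and 5.18 on its brightest. Over all 163 wide probes whose gene had another detected probe, at least 1 other probe was wide in 31 cases. At least 1 other probe had the same highest and lowest pool in 64 cases. A gene with several wide probes counts for each of them. The same shares were not taken for other genes with several probes, so neither count has a share to be read against. At the median the widest other probe had a range of 0.285.

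Among probes above the median signal, Timm9 and 1500004A13Rik had the widest spreads, and Cga came next. Cga, the alpha subunit shared by the glycoprotein hormones of the pituitary, read 1.31, 1.96 and 3.44, a step of 4.37-fold from pool 1 to pool 3. None of the 500 probes nearest in mean signal had a larger SD, which follows from naming Cga here by its SD. The retinol saturase Retsat read -0.47, 1.08 and 1.27, the G protein subunit Gng12 -1.24, -0.61 and 0.80 on 1 probe and 1.31, 1.36 and 1.43 on the other, and the peptide transporter Slc15a2 -0.65, 0.24 and -1.82 on 1 probe and -0.30, -0.62 and -0.36 on its brighter one. For Gng12 and Slc15a2 the brighter probe was thus the level one, and that of Slc15a2 was lowest in pool 2. The pool at the top differed from gene to gene, with pool 3 highest for Cga, Retsat and Gng12 and pool 2 for the wide probe of Slc15a2. Psmc3ip, a factor of meiotic recombination, was highest in pool 2 on both of its probes, at -0.98, 0.37 and -0.995 and at 0.16, 1.23 and -0.02. Masp2, a protease of the lectin pathway of complement, was highest in pool 3 and lowest in pool 2 on both detected probes, with ranges of 1.30 and 1.16.

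Genes of the pituitary and the choroid plexus, tissues that border the hypothalamus or its ventricle, were read by their lists. Of 10 measured genes of the anterior pituitary list, 4 were above background on all 3 arrays, and all 4 were highest in pool 3. Over all detected genes pool 3 was the highest for 25.6%, or 45.2% with no scaling between arrays. The log2 of the summed level of the 10 was 1.83, 2.29 and 3.69 in pools 1 to 3, and Cga alone made up most of that sum in each pool. Prolactin (Prl) read -2.91 in pool 1 and -0.71 in pool 3 and was not well above background in pool 2. Its level in pool 3 was 39.2-fold over the dimmest spot well above background in pool 2. Growth hormone (Gh) was above background in pool 3 alone, at -3.98, which is 4.07-fold over that dimmest spot of pool 2. Pitx1, a pituitary transcription factor, read -1.93, -2.07 and -1.34, and the beta subunits Lhb and Tshb were highest in pool 3 by 0.45 and 0.52 over pool 1. Gnrhr, Ghrhr and Tbx19 were not above background on any array, and Pou1f1 was not analysed here. Whether the pools held pituitary tissue was not tested. Pomc, which the pituitary makes as well as the arcuate nucleus, read 3.60 in pool 3 against 3.71 and 3.73 in pools 1 and 2. With no scaling between arrays, pool 2 minus pool 3 was -0.0202 for Pomc.

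Of 8 measured choroid plexus genes 7 were above background on all 3 arrays. All 7 were highest in pool 1 and 6 were lowest in pool 3, beside 38.4% and 41.5% over all detected genes. With no scaling between arrays pool 1 was the highest for 47.7% of all detected genes. Of the 11 reference genes, 7 were highest in pool 1 and 9 lowest in pool 3, or 8 and 3 with no scaling. With the undetected choroid plexus member the count lowest in pool 3 was 7 of 8, and with no scaling between arrays 5 of 8, beside 13.3% of all detected genes under that setting. The log2 of the summed level of the 8 was 1.81, 1.60 and 1.41, most of it from Clic6. Ttr, which carries thyroid hormone in the cerebrospinal fluid, spanned 26.7-fold between pools 1 and 3, and less after normexp correction, as given above. The potassium channel subunit Kcne2 read -2.87, -3.68 and -4.96, the folate receptor Folr1 -2.16, -2.29 and -2.79, and the klotho gene (Kl) -2.03, -2.15 and -2.46, while Clic6 spanned 0.06. The steps were thus wide for Ttr and Kcne2 and small for Clic6. Slc4a5 was not above background on any array, and Kcnj13 was not analysed here. The part of choroid plexus in the pools was not tested.

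All 4 genes of dopamine neurons were lowest in pool 1, or 3 of 4 with no scaling between arrays. The dopamine transporter Slc6a3 read 0.70 in pool 1, 1.80 in pool 2 and 1.97 in pool 3, a step of 2.41-fold. Tyrosine hydroxylase (Th) read 0.20, 0.73 and 0.63, and Ddc, the next enzyme of the pathway, 2.40, 2.79 and 2.78. The receptor Drd2 read -0.65, -0.56 and -0.64. Pool 1 was the lowest for 32.5% of all detected genes, or 16.1% with no scaling.

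The acetylcholine genes detected on all 3 arrays were both lowest in pool 2. The choline transporter Slc5a7 read -1.01, -1.71 and -1.25 and the vesicular transporter Slc18a3 -5.11, -5.57 and -5.26. Pool 2 was the lowest for 26.0% of all detected genes, or 70.6% with no scaling between arrays. Chat was above background in pools 2 and 3 alone, at -5.60 and -5.29. Its level of -5.81 in pool 1 was below the dimmest spot well above background there, but above that of pools 2 and 3. The limit of detection thus differed between arrays, so the flag cannot show whether Chat differed between pools.

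**Figure D4:**
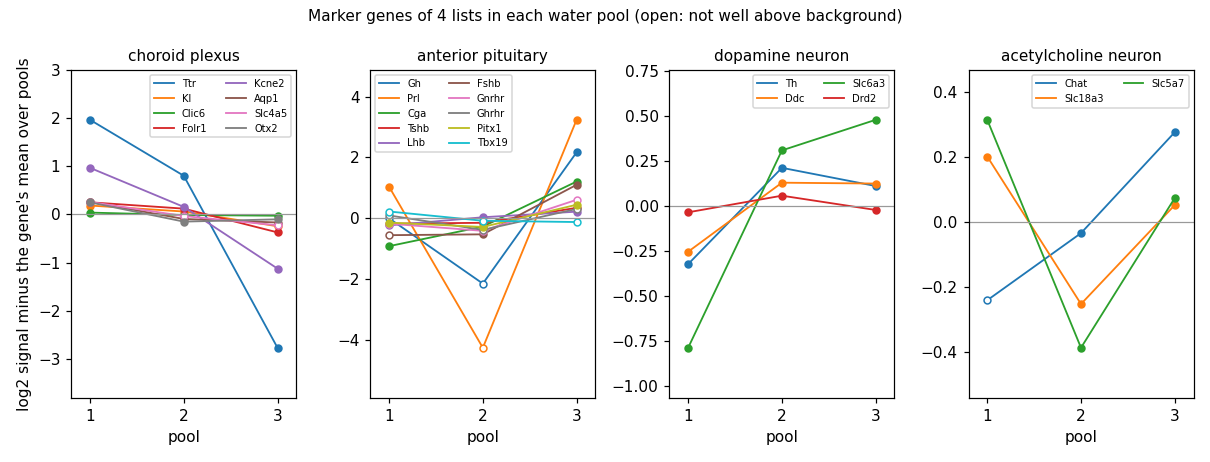
Level of each gene in pools 1, 2 and 3 minus its mean over the pools (log2 units, own scale in each panel) for the choroid plexus, anterior pituitary, dopamine and acetylcholine lists, with open points where the probe was not well above background. Lines join the values of 1 gene and imply no order of the pools. The 7 choroid plexus genes detected on all 3 arrays are highest in pool 1, the 4 such pituitary genes in pool 3, and the 4 dopamine genes are lowest in pool 1 (3 of 4 with no scaling between arrays).

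Some wide probes were neighbors on the genome. Within 200 kb on chromosome 3 (mm9, chr3:88604690-88704438), 6 wide probes of the transcripts 1500004A13Rik and 5830417I10Rik were all highest in pool 1 and lowest in pool 3, with ranges from 1.12 to 2.92. The brightest probe of 1500004A13Rik read 0.40, -0.26 and -2.12. Not every probe there moved, since 2 of the 5 probes named 5830417I10Rik had ranges of 0.14 and 0.34, the brightest of them with 0.95, 1.02 and 1.29. The widest of the 5 lies on the minus strand, like those of 1500004A13Rik, and the others lie on the plus strand. Which transcript it reads was not tested. Both detected probes of the adjacent gene Dap3, which codes for a protein of the mitochondrial ribosome, followed the same order of pools with ranges of 0.82, at 3.89, 3.51 and 3.06 on the brighter. Probes of Syt11, Rit1 and Msto1 had ranges of 0.09 to 0.30, and all 3 detected probes of Ash1l ran the other way, the widest at -0.14, 0.16 and 0.38.

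On chromosome 14 all 3 probes of 4930555G01Rik were highest in pool 1 and lowest in pool 3, the brightest with 0.78, 0.66 and -0.70, and some of them overlap in position. For the widest of the 3 the difference of 2.01 became 1.27 after normexp correction. On chromosome 5 (chr5:138038159-138265232), the wide probes highest in pool 1 were both of Mospd3, 1 of the 3 of Tsc22d4 and that of Pilra, with ranges of 1.28 to 1.98. The other 2 probes of Tsc22d4 had ranges of 0.15 and 0.49, and the one with 0.49 was highest in pool 1 as well. Other probes nearby were lowest in pool 1, among them 1 of Agfg2 at -2.97, -2.36 and -2.31, that of Gjc3 at -2.05, -1.47 and -1.26 and the unnamed AK037434 at -1.69, -0.88 and -0.95. Both Mospd3 probes stood apart in pool 1, at -0.63 against -1.96 and -2.09 and at -3.15 against -4.54 and -4.46.

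**Figure D5:**
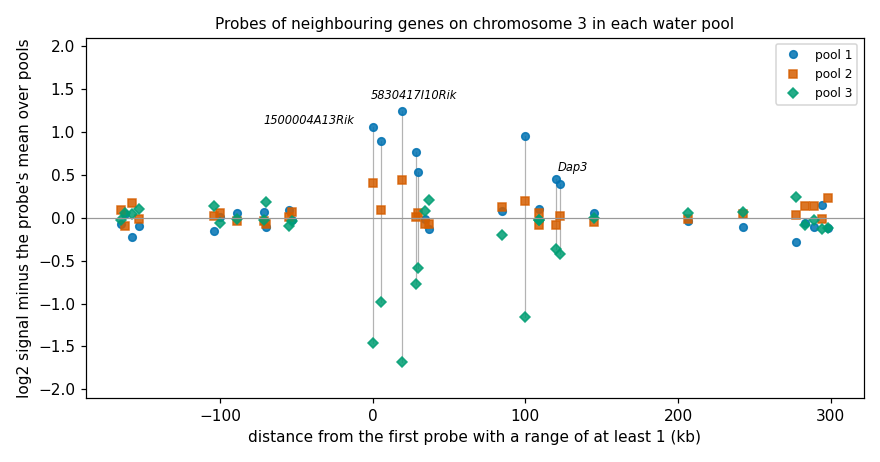
Level of each detected probe in pools 1, 2 and 3 minus its mean over the pools (log2 units) against its distance in kb from the first wide probe of the chromosome 3 region, with gray bars joining the pools where the range is 0.8 or more. The bars for 1500004A13Rik, 5830417I10Rik and Dap3 run from pool 1 at the top to pool 3 at the bottom, and the other probes have no bar.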

How the data were processed

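Per the file headers, the authors scanned the arrays and made the spot values with Agilent Feature Extraction 10.5.1.1, and its processed signal, a linear intensity after background subtraction and detrending within the array, was deposited with no scaling between arrays. The deposited background SD of each spot, a linear signal, entered 1 alternative for detection. The authors' value table held the same intensities, within 0.001 for 99.8% to 99.9% of the probes. Control spots and outlier flags were left out, spots of a probe were averaged, the log2 signal was taken and the 75th percentile of the array subtracted. Detection is the scanner software's flag for a signal well above background. Of 41174 probes 41144 had a value on all 3 arrays, and 25251 were named through RefSeq accessions, 6230 by symbol and 1601 by synonym, while 8062 were not named. Positions are those of the files, on mm9. A gene of a list was read on its brightest probe, and the genes of wide spread on the probe that varied most. On each array 43379 spots were used, 69.5% to 75.0% of them well above background, and the number of arrays limits the precision.

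The genes named were the 5 markers, the 20 of highest mean, the 20 of highest SD, list members not detected, up to 4 members per list by mean or SD, and members against their family. Some genes that this rule names are not reported here. Other genes named, such as Dap3, Mospd3, the brighter genes of wide spread and further list members, were chosen after their values were seen. The members and lists were chosen with earlier results of these data known. With 1 group of 3 pools no test between groups was made. The nearest 500 probes in mean signal gave the typical SD. The pools hold different mice, and whether they were handled apart before labeling is not given in the sources used here. Scripts ran in Python 3.11.15 with pandas 2.3.3, numpy 2.4.6 and matplotlib 3.10.9, and limma 3.58.1 in R 4.3.3 gave normexp, and the spread step was tested on simulated data. Alternatives were other detection flags, normexp, no scaling, quantile normalization, the value table, other filters on dim probes and leaving out each pool. The alcohol arrays were not used here.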

Additional observations from a re-analysis of the deposited data

How the results depend on the processing

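The count of probes above background on all 3 arrays was 28101 and lay between 28112 and 33162 under the other detection rules, while the count on no array fell from 10015 to 4571 with the flag for a positive and significant signal. The count of probes with a range of at least 1 moved most. It was 413, and became 170 after normexp correction, 2843 with no filter on dim probes, 50 among the brighter 50% of probes, and 178 to 255 when 1 pool was left out, where fewer pools give a narrower range by construction. The cause of the normexp change was not tested. The median SD of 0.0955 lay between 0.0684 and 0.139, and 18 to 20 of the 20 brightest genes were shared. Of 52 alternatives for the pool differences of 13 genes 51 kept the direction. The exception was Pomc, where pool 2 minus pool 3 was 0.14 and became -0.0202 with no scaling. In alternatives added after seeing the data, no scaling made pool 2 the lowest for 70.6% of genes, and lowered the astrocyte genes lowest in pool 3 from 9 to 3, beside 41.5% and 13.3% of all genes, and the microglia genes lowest in pool 1 from 7 to 2, beside 32.5% and 16.1%. No paired analysis was possible because the arrays used belong to 1 group.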

Other observations

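Genes of daily rhythm and stress were all detected. Of 13 clock genes the brightest was Dbp, an output factor of the clock, at 4.66, 4.92 and 4.66 in pools 1 to 3, and the widest was Per1, which slows the clock's own drive, at 0.18, 0.54 and 0.44. Pool 2 was the highest for 10 of the 13, beside 35.9% of all detected genes, and for 3 with no scaling between arrays, beside 7.06%. Among 8 measured glucocorticoid targets, the metallothionein Mt2 read 5.66 ± 0.13 (SD, n = 3) and the kinase Sgk1 2.18 ± 0.17. All 13 immediate early genes were above background on all 3 arrays. Beside Fos, the widest were Egr2, at -5.12, -4.55 and -4.69, and Btg2, at -1.65, -2.07 and -2.01, while Nr4a1 read 1.95 ± 0.03.

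All 20 imprinted genes of the list, which are read from 1 parental copy, were detected, with a median level of 3.10 and a median SD of 0.0641, which is 0.987 times that of probes of like brightness. The brightest were Impact (5.78 ± 0.05) and Nap1l5 (5.61 ± 0.03), and the widest of the list was the growth factor Igf2, at 1.07, 0.84 and 0.58 in pools 1 to 3. Mkrn3, an imprinted gene outside the list, varied more, at -5.03, -5.34 and -2.52.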
